A study of Homo sapiens with 6 samples.

Results

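FMR1, the fragile X protein, is an RNA-binding protein whose loss causes fragile X syndrome. It holds KH domains, which are folds that grip short stretches of RNA, and an arginine-glycine-rich tail, and it travels with polyribosomes, the messenger RNAs under translation. I304N replaces an isoleucine by an asparagine in the second KH domain, a change known to disturb the association with polyribosomes. Isoform 1 is the full-length splice form, and isoform 7 lacks an exon that lengthens a loop of that same domain. The question here is where the RNA sites of the I304N protein differ between isoform 7 and isoform 1.

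The comparison took every site of the I304N isoform 7 list, 88644 sites, and every site of the I304N isoform 1 list, 132219 sites, which is 220863 of the 464799 sites in the whole study. Sites came from PAR-CLIP, in which 4-thiouridine built into RNA is linked to bound protein by ultraviolet light and the bound fragments are sequenced. The cells were FlpIn T-REx HEK293, an established human embryonic kidney line. Each line carried a doxycycline-inducible transgene for 1 FLAG-HA tagged form. The forms compared were FMR1 iso7 with I304N and FMR1 iso1 with I304N. The same 2 isoforms as wild type, and wild-type FXR1 and FXR2, serve here for reference. All received 1 µg/ml doxycycline and 100 µM 4-thiouridine for 16 h, 365 nm light at 0.15 J per square cm, and RNase T1 for 15 min at 22 °C. Each form was represented by 1 library, so no difference below has a replicate error and none was tested. Ranges in brackets are 95% limits that take in counting error alone, by the Clopper-Pearson method for shares and by the exact conditional binomial for ratios.

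The lists hold positions and strand on the hg19 build and no read number, so every value counts sites. The number of sites in a stretch of the genome follows the amount of RNA, the sequencing depth and the site caller as well as binding, and these cannot be told apart here. Gene names below come from general knowledge of hg19 and not from an annotation of that build; they were given only to stretches where the gene is well known, and the position is the identity of each item. Exon, intron and UTR were not assigned.

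In site shape the lists were close to each other. Isoform 7 sites had a mean width of 28.2 nt (SD 18.5 over sites) and isoform 1 sites of 28.0 nt (SD 18.4), with medians of 24 and 23 nt. In each list 51.1% of sites lay on the plus strand, and 3.48% and 3.03% lay in repeats. The wild-type lists were less alike, at 23.2 nt for isoform 7 (78495 sites) and 29.5 nt for isoform 1 (121903 sites). Taken whole, the longer isoform 1 list thus had nearly the same widths. Within it, shared and private sites differed, with mean widths of 34.7 and 21.4 nt, as given below.

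Most isoform 7 sites were also found with isoform 1. Of the isoform 7 sites, 67270 shared 1 nt or more of the same strand with an isoform 1 site, 75.9% (75.6% to 76.2%). The reverse share was 66076 isoform 1 sites, 50.0% (49.7% to 50.2%). The lists differ in length, so both shares are needed: isoform 7 sites were mostly contained in the longer list, which held as many sites outside the overlap as inside it. With 1 in 3 isoform 1 sites left out in genome order, that list comes to about the length of the isoform 7 list. The first share was then 51.4% to 51.6% over the 3 possible starts. Even thinning lowers this share by about the part left out and need not match what a shorter list would hold. It therefore gives no overlap at equal length. Overlap on the opposite strand was found for 126 isoform 7 sites (0.142%). In wild type, 48.5% of isoform 7 sites were overlapped by isoform 1 and 29.3% the other way round. The I304N lists thus overlapped more than the wild-type lists in both directions, with no correction for list length or site width. I304N isoform 1 also overlapped 66.4% of wild-type isoform 7 sites, and 37.0% of its own sites were overlapped in return. Wild-type isoform 1 overlapped 42.6% of I304N isoform 7 sites, and 30.4% of its own were overlapped in return.

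Paired sites lay close together, although few had the same ends. There were 58574 pairs in which 1 isoform 7 site met 1 isoform 1 site and nothing else, and their midpoints lay a median of 2 nt apart. The 5′ ends were within 5 nt of each other in 71.0% of pairs and the 3′ ends in 71.3%. Both ends were identical in 8.08%. The isoform 7 site was the narrower of the pair in 58.3% and the wider in 31.5%, with mean widths of 28.7 nt (SD 16.4) and 32.1 nt (SD 17.6). In 46.9% of pairs the isoform 7 site lay wholly inside the isoform 1 site, against 23.0% for the reverse.

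Wide sites were nearly all shared and narrow ones much less so. Of isoform 7 sites of 100 nt or more, 99.8% were overlapped by isoform 1, and of those of 10 to 16 nt 54.4% were. The same classes of isoform 1 gave 99.8% and 19.4%. A wider site has more room to be overlapped, which this comparison does not correct for. Crowding went the same way: an isoform 7 site with no other isoform 7 site within 1000 nt was shared in 68.8% of cases, and one with 16 or more such neighbours in 83.5%. For isoform 1 these shares were 30.8% and 68.5%, so crowding separated shared from private sites more in the longer list.

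**Figure D1:**
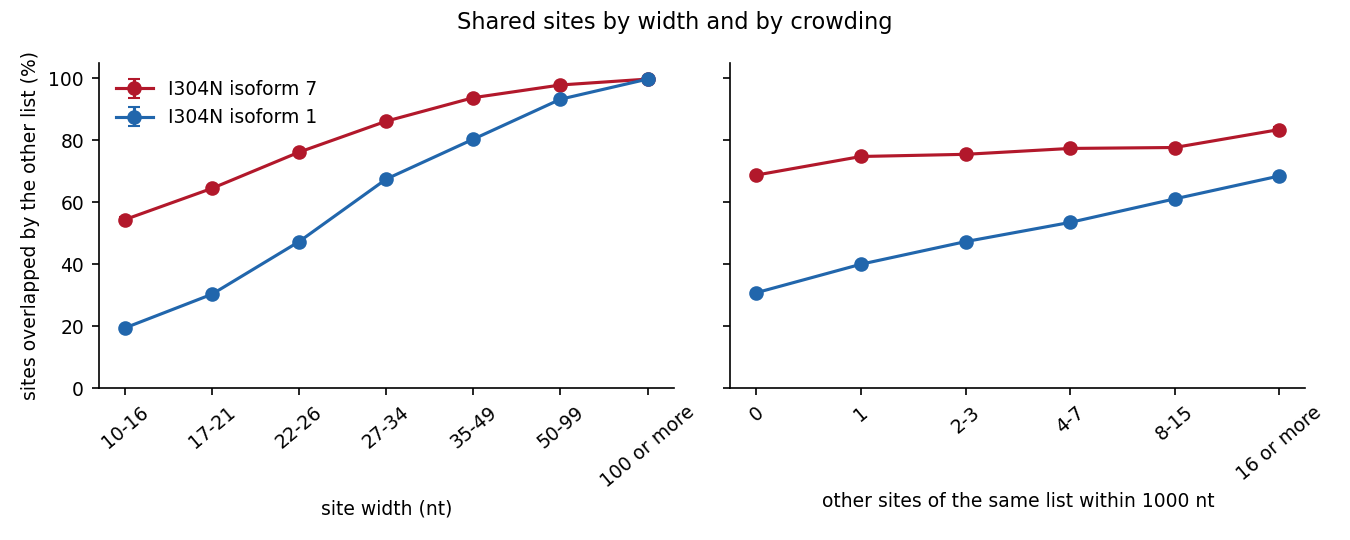
Share of sites overlapped by the other I304N list (vertical axis, percent) by site width in nt (left) and by the number of other sites of the same list within 1000 nt (right). Points are shares of all sites of a class and bars are 95% Clopper-Pearson intervals, mostly smaller than the points; isoform 7 runs from 54.4% to 99.8% over the widths and isoform 1 from 19.4% to 99.8%.

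Private sites, those with no overlap in the other list, were narrow in both. The 21374 private isoform 7 sites had a mean width of 20.7 nt (SD 6.88), against 30.6 nt (SD 20.3) for its shared sites. The 66143 private isoform 1 sites had 21.4 nt (SD 7.48), against 34.7 nt (SD 23.2). Private did not mean remote. A private isoform 7 site lay a median of 95 nt from the nearest isoform 1 site on its strand, and 79.7% lay within 1000 nt. A private isoform 1 site lay a median of 320 nt from the nearest isoform 7 site, and 61.5% lay within 1000 nt. Only 1117 isoform 7 sites (1.26%) and 4248 isoform 1 sites (3.21%) had no site of either list within 10000 nt.

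Private sites of isoform 7 were also rarely found in the other libraries of the study. Of them 11.3% (10.9% to 11.8%) were overlapped by wild-type isoform 7, against 51.6% of shared isoform 7 sites. In wild-type isoform 1, a library of the other isoform, 15.5% were found, more than in the wild type of their own isoform, which is the shorter list. Of private isoform 1 sites 32.2% (31.9% to 32.6%) were overlapped by wild-type isoform 1 and 22.4% by wild-type isoform 7. Among sites of 17 to 26 nt the order was the same: 11.3% of private and 42.7% of shared isoform 7 sites were found in wild-type isoform 7, and 32.0% of private and 38.4% of shared isoform 1 sites in wild-type isoform 1. No overlap in any of the 4 other libraries, FXR1 and FXR2 included, was found for 75.9% of private isoform 7 sites and for 55.5% of private isoform 1 sites.

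FXR2, a paralog of FMR1 that binds RNA through the same kinds of domain, gave the same order. It overlapped 2.51% of private and 15.9% of shared isoform 7 sites, and 6.08% of private and 16.5% of shared isoform 1 sites. FXR1, whose list is short, overlapped 0.459% of private and 2.27% of shared isoform 7 sites. For isoform 1 the FXR1 shares were 1.24% and 2.52%. Shared sites of either isoform were thus those most often found with a paralog, but they were also wider. Among sites of 17 to 26 nt, FXR2 overlapped 2.51% of private and 10.9% of shared isoform 7 sites. For isoform 1 these were 5.77% and 8.77%. FXR1 at this width gave 0.541% and 1.68% for isoform 7, and 1.21% and 1.45% for isoform 1. The contrast was thus smaller at this width, above all for isoform 1.

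Sites of both lists came in tight groups. The median gap from an isoform 7 site to the next site of its own list was 54 nt, and 46 nt for isoform 1. A neighbour within 1000 nt was found for 83.7% (83.5% to 84.0%) of isoform 7 and 84.6% (84.4% to 84.8%) of isoform 1 sites. Isolated sites, with no neighbour within 1000 nt, were 1.06 times (1.03 to 1.08) as frequent in isoform 7. With 1 in 3 isoform 1 sites left out the ratio was 0.730 to 0.740. Leaving sites out evenly isolates those that remain and need not match what a shorter list would hold, so no order in grouping is read from it. The wild-type lists lay further apart, with 28.7% isolated sites in isoform 7 and 12.8% in isoform 1.

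**Figure D2:**
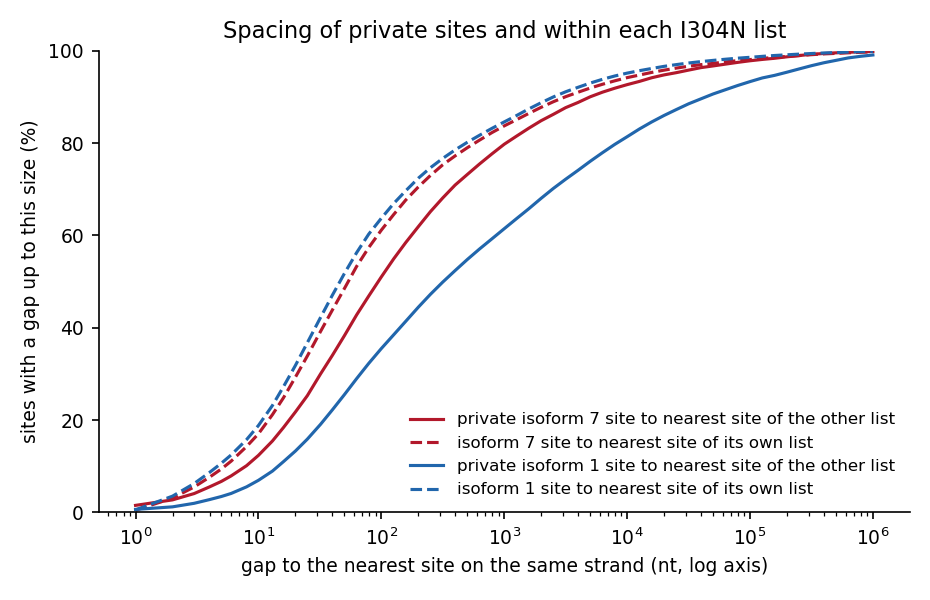
Cumulative share of sites (vertical axis, percent) whose nearest site on the same strand lies within the gap on the horizontal axis (nt, log axis). Dashed lines give each list's distance to itself and solid lines the distance of private sites to the other list; the private isoform 1 curve lies lowest, with 61.5% within 1000 nt against 79.7% for private isoform 7 sites.

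Chaining sites of one list that lie within 1000 nt of each other gave 27331 clusters in isoform 7 and 40644 in isoform 1, with means of 3.24 and 3.25 sites. Clusters of 20 or more sites numbered 633 and 920 and held 23.6% and 23.0% of sites. Nearly every large cluster met the other list: 631 of the 633 isoform 7 clusters and 919 of the 920 isoform 1 clusters contained a site of the other list. Of single-site clusters, 68.8% of isoform 7 and 30.7% of isoform 1 did. A cluster counts as met by a single site of the other list, so large clusters reach a high share by their size.

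The longest clusters are given with the sites of both lists. On chromosome 11, minus strand, the AHNAK stretch (62283691 to 62301413), a gene for a very large scaffold protein, held 81 isoform 7 and 136 isoform 1 sites. On chromosome 17, minus strand, the FASN stretch (80036503 to 80051634), which encodes fatty acid synthase, held 89 and 88. On chromosome 10, plus strand, the LCOR stretch (98740590 to 98755616), a corepressor of nuclear receptors, held 130 and 136. The third longest cluster of isoform 7 was far less even. It lay on chromosome 21, plus strand, from 45222793 to 45237897, and held 76 isoform 7 sites against 11 of isoform 1, and in wild type 7 and 0.

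The lists were spread unevenly over the chromosomes. Of 23 chromosomes compared (Y, with 9 and 15 sites, left out), 5 held a larger share of isoform 7 than of isoform 1 sites beyond the counting interval, 8 a smaller one, and for 10 the interval held 1. Chromosome 14 stood highest, with 3.85% of isoform 7 and 2.96% of isoform 1 sites, a ratio of 1.30 (1.24 to 1.36). It was followed by chromosome 7 at 1.25 (1.20 to 1.30), chromosome 19 at 1.24 (1.21 to 1.28), chromosome 21 at 1.21 (1.14 to 1.30) and chromosome 22 at 1.09 (1.04 to 1.14). Chromosome 2 stood lowest at 0.737 (0.709 to 0.767), next to chromosome 4 at 0.741 (0.699 to 0.785). Chromosomes 14 and 7 were also those where the fewest isoform 7 sites were shared, 65.9% and 69.4%.

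Chromosome 19 was also high in the wild-type pair, at 1.30 (1.25 to 1.35), whereas chromosome 7 gave 0.970 (0.929 to 1.01) and chromosome 14 gave 0.896 (0.851 to 0.944) there. The excess on chromosomes 7 and 14 did not sit in 1 place. Stretches of 10 Mb with at least 200 sites were a division made after the chromosome values were seen. Isoform 7 was above its share in 10 of 11 stretches on chromosome 7 and in 7 of 7 on chromosome 14. Beyond the counting interval these numbered 9 and 4. Over the genome isoform 7 was above in 88 of 242, and on chromosome 2 in 3 of 21. In the wild-type pair the same stretches were above 1 in 6 of 11 on chromosome 7, 2 of 7 on chromosome 14 and 9 of 21 on chromosome 2. An excess in most stretches was not particular to chromosomes 7 and 14. On chromosomes 19, 21 and 22, I304N isoform 7 was above in 5 of 6, 2 of 2 and 3 of 5 stretches. In wild type these were 4 of 6, 1 of 2 and 5 of 5.

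**Figure D3:**
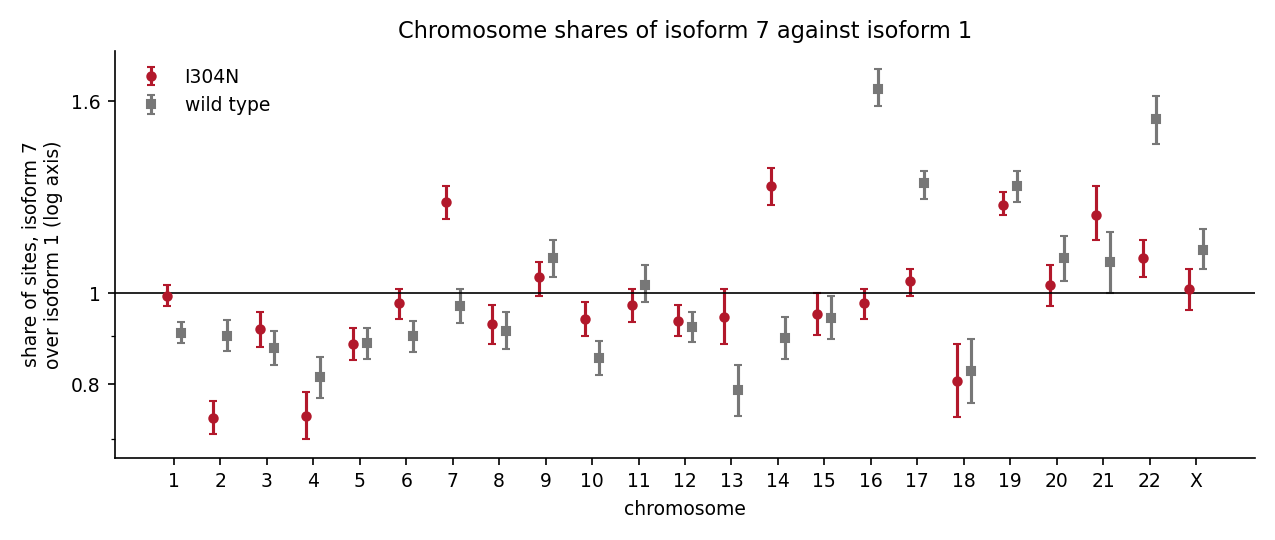
Share of a list's sites on each chromosome, isoform 7 over isoform 1 (vertical axis, log axis), for the I304N pair (circles) and the wild-type pair (squares), with exact conditional 95% intervals for counting error. I304N points for chromosomes 7 and 14 lie at 1.25 and 1.30, where the wild-type points lie at 0.970 and 0.896.

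For local density, strands were divided into windows of 50 kb and site numbers scaled to 100000 per list. A site of either list was found in 15955 windows: 10348 held both, 913 isoform 7 only and 4694 isoform 1 only. The 7945 windows with a mean of at least 2 scaled sites were compared. Of these, 437 (5.50%) were at least 2-fold denser in isoform 7, and 1294 (16.3%) in isoform 1, on the ratio of scaled sites with 1 added to each. Counting alone produces many such ratios in thin windows. By the interval of the ratio itself, 320 windows (4.03%) held more of the isoform 7 list and 390 (4.91%) more of the isoform 1 list, and the median log2 ratio was -0.06. That median turned to 0.0551 with a filter of 4 scaled sites.

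Isoform 7 sites gathered in the windows that were densest overall. The 435 windows with 80 or more sites of both lists together held 26.6% of isoform 7 and 20.5% of isoform 1 sites, a ratio of 1.30 (1.27 to 1.32). Windows with 1 to 9 sites held 11% and 17.1%, a ratio of 0.647 (0.632 to 0.663). The median log2 ratio went from -0.31 in compared windows of 4 to 9 sites to 0.38 in those of 80 to 440. In that densest class 26.4% of windows held more of the isoform 7 list beyond the interval and 2.07% less, so the broad pattern ran with site density.

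**Figure D4:**
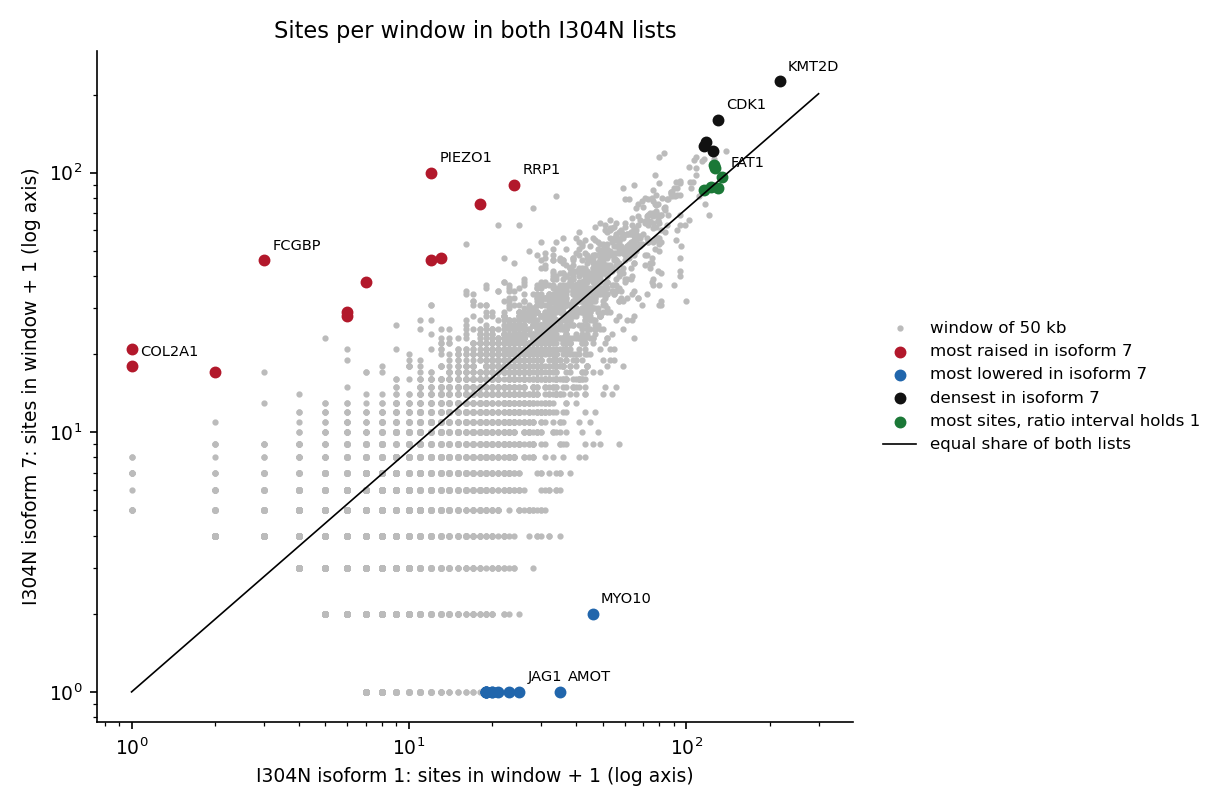
Sites per 50 kb window in I304N isoform 1 (horizontal) and I304N isoform 7 (vertical), each plus 1, on log axes. Each grey point is 1 of the 7945 windows compared, the line marks an equal share of both lists, and the named windows are coloured; FCGBP and PIEZO1 lie far above the line with 45 against 2 and 99 against 11 sites, and AMOT far below it with 0 against 34.

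The 12 windows that stood furthest above their isoform 1 share were ranked by the lower limit of the ratio, so their ratios describe the choice and are likely too extreme; the same holds for the 12 furthest below. The top of the list was FCGBP, a gene for a large mucin-like secreted protein that binds the Fc part of immunoglobulin G. Its stretch on chromosome 19, minus strand, covered the first 2 ranks and, from 40350001 to 40450000, held 65 isoform 7 sites and 2 of isoform 1, with 0 and 1 in wild type. The ratio of list shares was 48.5 (12.9 to 409). Both isoform 1 sites were shared with isoform 7, so 63 of the 65 were private.

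PIEZO1 encodes a channel that opens on membrane stretch. Its window on chromosome 16, minus strand, 88800001 to 88850000, held 99 isoform 7 and 11 isoform 1 sites, and 11 and 1 in the wild-type pair. The ratio was 13.4 (7.19 to 27.8), and in wild type 17.1 (2.48 to 735). The isoform 7 side was thus the higher in both pairs. Wild-type isoform 7 and I304N isoform 1 had the same raw count of 11, from lists of 78495 and 132219 sites.

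RRP1, a gene for a nucleolar protein of ribosomal RNA maturation, begins the stretch on chromosome 21, plus strand, that also formed the long isoform 7 cluster. The window from 45200001 to 45250000 held 89 and 23 sites, and 11 and 0 in wild type. The I304N ratio was 5.77 (3.62 to 9.57), and the lower limit of the wild-type ratio was 3.90. Many of these sites lie beyond RRP1 itself, up to 45245799.

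COL2A1, a fibrillar collagen of cartilage, held 17 isoform 7 sites and none of isoform 1 or either wild type (chromosome 12, minus strand, 48350001 to 48400000). With isoform 1 at 0 no ratio was formed, and its lower limit was 6.15. LHFPL4, a partner of GABA receptors at synapses, held 37 and 6 sites, with 2 and 1 in wild type (chromosome 3, minus strand, 9500001 to 9550000). DNAJB6, an Hsp40 co-chaperone, held 46 and 12, with 9 and 10 in wild type (chromosome 7, plus strand, 157200001 to 157250000). All 3 held more isoform 7 sites with I304N than any other FMR1 list held. Against I304N isoform 1 this order was set by the choice of windows.

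The other 5 raised windows are given by position. On chromosome 9, minus strand, from 131350001, there were 75 and 17 sites. On chromosome 5, minus strand, from 138700001, there were 45 and 11, and in wild type 2 and 9, the reverse order. On chromosome 14, plus strand, from 24550001, there were 28 and 5. Windows on chromosome 10, plus strand, from 46950001, and on chromosome 7, minus strand, from 149550001, held 27 and 5 and 16 and 1, and neither had a wild-type site. Of the 12 raised windows, wild-type isoform 7 had the larger share in 6 and the smaller in 2, and 4 had no site in either wild type. The wild-type interval lay above 1 in 2 of the 12, and several of the wild-type counts were small. Of the 12 lowered windows given next, wild-type isoform 7 had the larger share in 6 and the smaller in 6.

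The 12 windows furthest below were led by AMOT, angiomotin, a scaffold of cell junctions and of the Hippo pathway. On chromosome X, minus strand, 112000001 to 112050000, the counts were 0 and 34, for which the ratio's upper limit was 0.171. Wild type showed the opposite, with 44 isoform 7 and 1 isoform 1 sites, a ratio of 68.3 (11.6 to 2760). At AMOT the order of the isoforms was thus opposite in the I304N and the wild-type pair.

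MYO10, a myosin that moves to the tips of filopodia, held 1 and 45 sites on chromosome 5, minus strand, 16650001 to 16700000, a ratio of 0.0331 (0.000821 to 0.194). Here too wild type ran the other way, with 40 and 25 sites and a ratio of 2.48 (1.47 to 4.27). SLC30A1, a zinc exporter, ran the same way in both pairs, with 0 and 18 sites in I304N and 2 and 62 in wild type (chromosome 1, minus strand, 211700001 to 211750000). It was the sole named window of the 12 in which the wild-type interval lay below 1.

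At the others the I304N isoform 7 list held 0 sites, which the choice of windows favours. Each of the 3 other FMR1 lists held sites there, in some windows only a few. JAG1, a ligand of Notch receptors, held 0 isoform 7 and 24 isoform 1 sites, and 3 and 10 in wild type (chromosome 20, minus strand, 10600001 to 10650000; upper limit 0.248). NCOR1, a corepressor of nuclear receptors, held 0 and 22, and 21 and 25 in wild type (chromosome 17, minus strand, 15950001 to 16000000; upper limit 0.272). FBN2, a fibrillin of extracellular microfibrils, held 0 and 20, and 10 and 16 in wild type (chromosome 5, minus strand, 127600001 to 127650000).

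NCAPD3, a subunit of condensin II, held 0 and 19, and 9 and 5 in wild type (chromosome 11, minus strand, 134050001 to 134100000). A window on chromosome 2, plus strand, from 20850001, held 0 and 19, and 8 and 16 in wild type. The last 4 held 0 and 18 sites each, with an upper limit of 0.339. They were ATP2B4, a calcium pump of the plasma membrane (chromosome 1, plus strand, from 203650001), PLK2, a polo-like kinase (chromosome 5, minus strand, from 57750001), ARFGEF3, of a family of exchange factors for ARF proteins (chromosome 6, plus strand, from 138650001), and NUP160, a nucleoporin (chromosome 11, minus strand, from 47800001). Wild-type isoform 7 had 5, 5, 19 and 8 sites at these 4. A further window, on chromosome X, minus strand, from 46450001, had the same counts of 0 and 18 and was left off by rank.

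**Figure D5:**
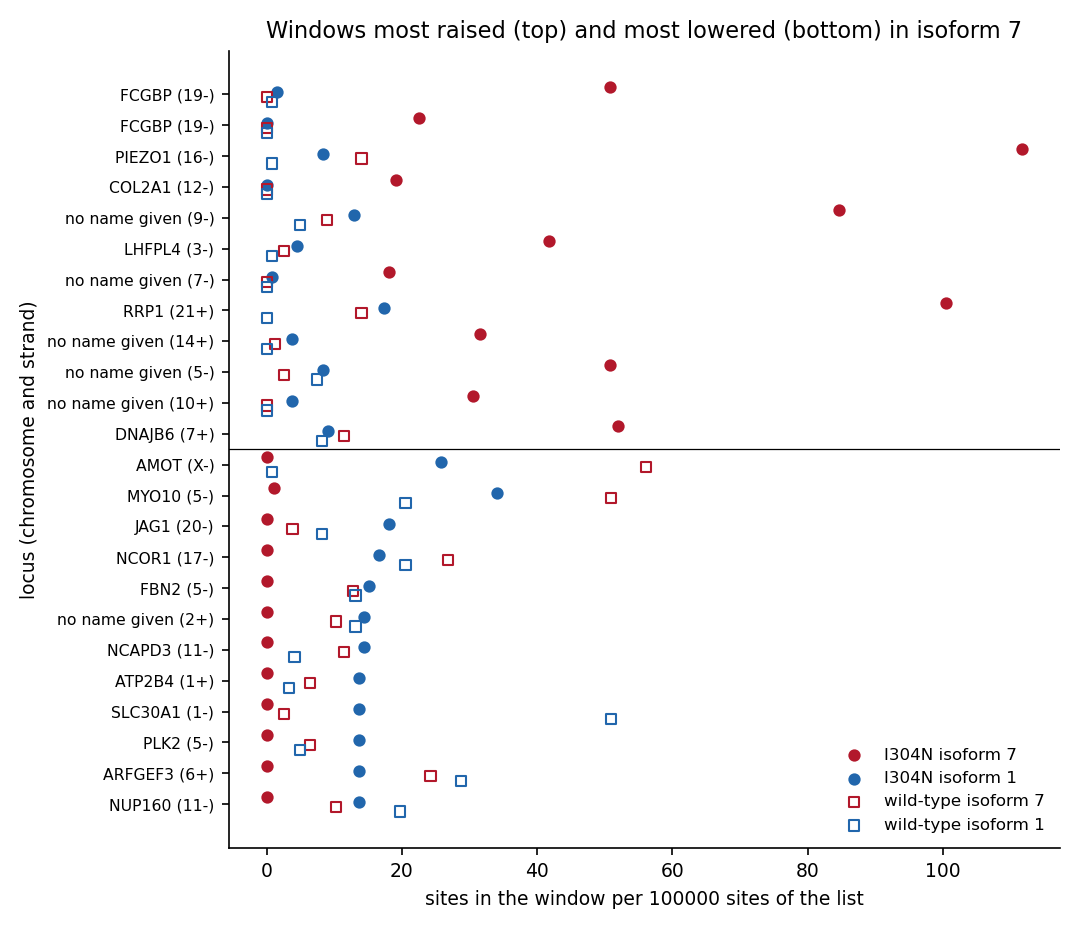
Sites in the window per 100000 sites of the list (horizontal axis) for the 12 windows most raised in I304N isoform 7 (above the line) and the 12 most lowered (below it), in the 4 FMR1 lists (1 library each, no error bars). With I304N, PIEZO1 reaches 112 for isoform 7 and 8.32 for isoform 1, and AMOT 0 and 25.7.

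The wild-type pair shares no library with the I304N pair, so it shows whether a window leaned the same way a second time. Of the 320 windows raised in I304N isoform 7, 103 (32.2%) were raised beyond the interval in wild type as well and 11 (3.44%) were lowered, where over all 7945 windows 807 (10.2%) and 886 (11.2%) were. Of the 390 lowered windows, 65 (16.7%) were lowered in wild type and 55 (14.1%) raised. Dense windows pass an interval more readily in any pair, which bears on all of these shares. Raised windows leaned the same way in wild type far more often than the opposite way, and lowered windows did so about equally.

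Of the 5 densest windows of each list, KMT2D and CDK1 stood in both. KMT2D, a histone H3 lysine methyltransferase, led both lists with 224 and 216 sites, and 216 and 172 in wild type (chromosome 12, minus strand, 49400001 to 49450000; ratio 1.55, 1.28 to 1.87). The end of CDK1, the kinase that drives entry into mitosis, lies in a window on chromosome 10, plus strand, 62550001 to 62600000, whose sites run on past the gene to 62572794. It held 159 and 129 sites, a ratio of 1.84 (1.45 to 2.34). There the wild-type pair was reversed, with 32 and 208 sites (0.239, 0.159 to 0.348).

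P4HB, a protein disulfide isomerase, held, together with its downstream and upstream neighbours, 130 and 117 sites (chromosome 17, minus strand, 79800001 to 79850000; ratio 1.66, 1.28 to 2.15). SPEN, a transcriptional repressor with RNA-binding domains, held 126 and 115 (chromosome 1, plus strand, 16250001 to 16300000; ratio 1.63, 1.26 to 2.12). AGO2, the endonuclease of microRNA-guided silencing, held 120 and 124 (chromosome 8, minus strand, 141500001 to 141550000; ratio 1.44, 1.11 to 1.87). These windows were picked for their isoform 7 count, which raises the ratio. Windows picked for their isoform 1 count included FAT1, with a ratio of 1.06, and one on chromosome 19, plus strand, from 57800001, with 120 and 138 sites and a ratio of 1.30 (1.01 to 1.67).

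Windows with many sites whose interval held 1 included LCOR, FAT1, MKI67, DYNC1H1 and ABL2. FAT1, a giant cadherin, held 95 and 134 sites (chromosome 4, minus strand, 187500001 to 187550000), a ratio of 1.06 (0.804 to 1.39). DYNC1H1, the heavy chain of cytoplasmic dynein, held 87 and 122 (chromosome 14, plus strand, 102450001 to 102500000), a ratio of 1.06 (0.798 to 1.41). That interval also takes in the ratio of 1.30 for chromosome 14 as a whole. An interval that holds 1 does not show equal binding: at FAT1 it allows any ratio from 0.804 to 1.39.

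Over the genome the sites covered 2.50 Mb in isoform 7 and 3.71 Mb in isoform 1, not scaled to list length. In the same unscaled terms they covered 3355 and 3932 nt at LCOR, 3458 and 4659 nt at MKI67, and 2390 and 3557 nt at ABL2. At FAT1 they covered 2804 and 5329 nt, and at DYNC1H1 2612 and 4706 nt. Isoform 7 sites covered fewer nt at each of these 5 loci. A shorter list makes this likely where the interval of the scaled ratio holds 1. Among the 5 windows densest in isoform 7, they covered more at KMT2D (10284 against 9694 nt), CDK1 (5184 against 3882 nt) and P4HB (4593 against 3545 nt). They covered fewer at SPEN (6472 against 7703 nt) and AGO2 (4737 against 5199 nt).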

How the data were processed

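Site lists came from PAR-CLIP of I304N FMR1 isoform 7 and isoform 1, 1 library each, with 4 further libraries of the study as reference. The submitters' processing notes name Bowtie 0.12.7 and hg19. For the site caller, its thresholds and any pooling the record is: not given in the sources used here. The deposited score is a flag, 1000 outside repeats and 0 in a repeat, per the file headers. Sequencer models in the labels are not assigned to libraries, so sequencer and isoform cannot be told apart.

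Overlap was 1 nt on the same strand. Windows of 50 kb were scaled to 100000 sites per list, with a pseudocount of 1 for the 2-fold counts only. Where a count was 0, only the interval's limit is given. The code (NumPy 2.4.6, SciPy 1.17.1, pandas 2.3.3) was tested on simulated lists. Named windows follow a rule: the 5 densest per list, the 12 most raised and 12 most lowered by the limit of the ratio nearest 1, the 6 largest whose interval holds 1, and the 3 longest clusters per list; 1 window so chosen is not reported here. Members, lists and rule were chosen with earlier results of these data known. No hg19 annotation or genome was at hand, so planned gene lists, transcript classes, sequences and the check of the transgenes were not analysed here.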

Additional observations from a re-analysis of the deposited data

Results flagged for a closer look

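At 4 of the named windows and on 1 chromosome, isoform 7 leaned one way against isoform 1 in the I304N pair and the other way in the wild-type pair, each beyond its counting interval. With 1 library per form the difference between the pairs was not tested. The AMOT window gave 0 against 34 sites with I304N and a ratio of 68.3 in wild type. The MYO10 window gave 0.0331 with I304N and 2.48 in wild type. The CDK1 window gave 1.84 with I304N and 0.239 in wild type. A window on chromosome 19, plus strand, from 57800001, in a stretch of zinc-finger genes, gave 1.30 (1.01 to 1.67) with I304N and 0.540 (0.413 to 0.700) in wild type; under median-of-ratios scaling the I304N interval held 1 (1.25, 0.970 to 1.61). Chromosome 14 gave 1.30 with I304N and 0.896 in wild type.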

How the results depend on the processing

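Leaving out repeat or mitochondrial sites, or ignoring strand, kept both shares of shared sites within their intervals. Asking for 50% of the shorter site gave 74.6% of isoform 7 and 49.0% of isoform 1 sites shared, and 50% of both sites gave 61.8% and 41.4%. With 1 in 3 isoform 1 sites left out, 51.4%, 51.4% and 51.6% of isoform 7 sites were shared, 77.8%, 78.0% and 77.7% of isoform 1 sites had a neighbour within 1000 nt, and the ratio of isolated shares turned to 0.733, 0.740 and 0.730. With 300 nt, 74.8% and 76.2% of isoform 7 and isoform 1 sites had a neighbour. With 3000 nt, 89.8% and 90.9% had one, and the isolated ratio was 1.12. The ratio of mean widths, 1.01, was 1.04 for medians. Windows at least 2-fold denser in isoform 7 and in isoform 1 numbered 121 and 433 with a pseudocount of 5, 1334 and 2858 with no filter, and 282 and 692 with a filter of 4 sites. The median log2 ratio, -0.0587, was -0.0056 with 20 kb windows, -0.0933 with 100 kb windows, -0.3059 with no filter, -0.1108 with median-of-ratios scaling, and turned to 0.0551 with a filter of 4 sites, which leaves 5533 denser windows. With 50% of the shorter site, 10.8% of private isoform 7 sites were seen in wild-type isoform 7 and 30.0% of private isoform 1 sites in wild-type isoform 1. Of 23 named windows with sites in both lists, 22 kept their side of the interval under median-of-ratios scaling; the one on chromosome 19 from 57800001 did not (1.25, 0.970 to 1.61). No paired analysis was possible because each form has 1 library. The lists give no depth, so a missing site cannot be told from one under the caller's threshold.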
